A study of Mus musculus with 3 samples.

Results

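The 9 genes described here are Gdf15 and 8 genes of the integrated stress response: Atf4, Ddit3, Ddit4, Trib3, Chac1, Asns, Sesn2 and Hspa5. They were chosen by symbol out of 53802 genes in the count matrices, and the choice was made with their levels in the 3 libraries known. The difference between the knockout and the control libraries therefore stands below as a description of the 9 genes, with no test. The comparisons between marker-gated groups of cells were tested.

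The integrated stress response begins when one of several kinases phosphorylates the translation factor eIF2. General translation then slows, while the mRNA of the transcription factor ATF4 is translated better, so that much of its control lies beyond its mRNA level. ATF4 turns on genes for amino acid supply (Asns, asparagine synthetase), glutathione turnover (Chac1), brakes on mTORC1 signalling (Ddit4, also called REDD1, and Sesn2), the transcription factor CHOP (Ddit3) and the pseudokinase Trib3, which feeds back on ATF4. Hspa5 encodes BiP, the main chaperone of the endoplasmic reticulum (ER), and is the classical target of the ER unfolded protein response, which shares the kinase PERK with the integrated stress response. Gdf15 encodes a secreted hormone of the TGF-beta superfamily that acts on the brainstem receptor GFRAL. It is induced through ATF4 and CHOP and also through p53, and injured liver and activated macrophages are known sources of it.

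The cells were sorted Ly6Chi monocytes from the livers of male C57BL/6 mice aged 8 weeks, taken 24 h after 300 mg/kg acetaminophen, a liver poison at this dose. All mice had fasted for 12 h before the injection and had chow back 2 h after it, so no library is from an uninjured or fed animal. There are 2 control libraries (Commd10fl/fl, control 1 and control 3) and 1 knockout library (LysMDCommd10, knockout 4), in which LysM-Cre, a recombinase expressed from the Lyz2 locus of myeloid cells, deletes Commd10. The labels do not say how many mice went into a library, so every p-value below measures the spread between libraries only. With 1 knockout library, a difference between genotypes cannot be told apart from a difference between libraries.

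Single-cell 3' libraries were counted as unique molecular identifiers (UMIs), one per captured mRNA molecule. The libraries held 30302932 to 72867668 UMIs, and 4036, 7346 and 4425 cells of control 1, control 3 and knockout 4 were used, with median UMI counts of 8767, 8149 and 6871. Cells of knockout 4 were the shallowest. Levels below are UMI counts per 1000000 (CPM), scaled between libraries. In control 1, control 3 and knockout 4 the level of Commd10 was 17.3, 10.4 and 8.66 CPM, lowest in the library labelled knockout, but the 2 controls lay farther apart than control 3 and knockout 4. No source says whether the counted 3' end lies in the deleted part, so this level is a loose check of the label. Lyz2, into which Cre is inserted, stood at 14993, 11577 and 6604. The monocyte marker Ly6c2 was at 472 to 611 CPM in the 3 libraries, Ccr2 at 875 to 953 and Vcan at 149 to 387, while the 6 T cell markers summed to 0.453 to 0.737. The libraries shared 8 to 26 cell barcodes per pair.

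Regulatory sequence upstream of the members is shown first, because ATF4 with its C/EBP partners binds a composite element (CARE) and the ER stress factor ATF6 binds another (ERSE). RefSeq windows (GRCm38.p6) were available for all 9 members. In the 250 bases before each annotated start, both strands were searched for TGATGNAA, the core of CARE, and for the ERSE, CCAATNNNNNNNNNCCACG. The CARE letters occurred in 3.45% of 32851 such windows and the ERSE letters in 0.113%. Among the members, Chac1 and Asns held the CARE letters and Hspa5 the ERSE letters. The windows of Gdf15, Atf4, Ddit3, Ddit4, Trib3 and Sesn2 held neither. A match describes these letters and does not show a site in use, and a window without one says nothing of sequence farther away. The starts used here are those of RefSeq. By the GENCODE M21 gene coordinates printed further on, the Asns and Hspa5 stretches lie inside the gene. In the stretches below the capitals mark the match; the Gdf15 stretch, shown because Gdf15 had the widest range across groups of cells among the 7 members tested there, has none.
Chac1, chr2:119350992-119351221, plus strand: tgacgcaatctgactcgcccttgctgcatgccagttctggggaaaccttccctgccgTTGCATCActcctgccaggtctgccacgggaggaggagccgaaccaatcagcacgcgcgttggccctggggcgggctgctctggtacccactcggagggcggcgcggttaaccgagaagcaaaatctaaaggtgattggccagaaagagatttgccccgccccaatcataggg
Asns, chr6:7693214-7693243, minus strand: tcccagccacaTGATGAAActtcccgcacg
Hspa5, chr2:34772020-34772048, plus strand: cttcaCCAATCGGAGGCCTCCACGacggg
Gdf15, chr8:70632457-70632706, minus strand: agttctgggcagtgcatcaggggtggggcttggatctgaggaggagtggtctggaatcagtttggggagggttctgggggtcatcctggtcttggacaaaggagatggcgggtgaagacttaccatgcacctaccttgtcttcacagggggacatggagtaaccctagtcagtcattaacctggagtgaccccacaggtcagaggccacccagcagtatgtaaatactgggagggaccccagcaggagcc

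Over whole libraries, Gdf15 was lower in the knockout library and 6 members were higher in it than in both controls. Gdf15 (chromosome 8, 70629393 to 70632456) stood at 37.6 CPM in control 1, 34.6 in control 3 and 17.5 in knockout 4, from 1478, 2441 and 505 UMIs. The 2 controls lay close together and the knockout library was at 0.485 times their mean, a fitted log2 difference of -1.04 ± 0.16 (SE). In the same fit, 28 of 14773 genes (0.19%) were called higher in the knockout library and 1 (0.00677%) lower at an adjusted p under 0.05 by edgeR. Since the members were chosen with this difference known, no call is given for them. Of all genes tested, 36.2% lay above both controls in the knockout library and 36.8% below both, so a place outside the 2 controls was common.

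Atf4 (chromosome 15, 80255184 to 80257541), the transcription factor at the centre of the response, stood at 68.5 CPM in control 1, 72.8 in control 3 and 85.5 in knockout 4, a log2 difference of 0.27 ± 0.15 (SE). Its partner gene Ddit3 (CHOP; chromosome 10, 127290774 to 127296288) stood at 17.9, 23.8 and 20.5, with the knockout library between the controls. Ddit3 shares its locus with a second gene model in the matrices, so some of its reads may have been left out of its count. The mRNAs of both factors thus differed less between genotypes than that of Gdf15 did.

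Ddit4 (chromosome 10, 59949669 to 59951834) stood at 19.8, 23.3 and 29.0 CPM and Sesn2 (chromosome 4, 132492032 to 132510501) at 10.1, 12.1 and 16.2, in the same order of libraries. Both restrain mTORC1, and both were higher in knockout 4 than in either control, with log2 differences of 0.43 ± 0.17 and 0.55 ± 0.19 (SE). Asns (chromosome 6, 7675169 to 7693254) stood at 1.32, 1.40 and 2.11, from 52, 99 and 61 UMIs. Trib3 (chromosome 2, 152337422 to 152344032) stood at 0.483, 0.269 and 0.797, from 19, 19 and 23 UMIs. Chac1 (chromosome 2, 119351229 to 119354381) was all but undetected, with 4, 2 and 1 UMIs, and was not tested. Trib3 and Chac1 were thus at the edge of detection in every library, and their differences were not measurable at this depth. Hspa5 (chromosome 2, 34771970 to 34777547) stood at 1028, 1176 and 1225 CPM, a log2 difference of 0.15 ± 0.16 (SE), with control 3 nearer to knockout 4 than to control 1.

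**Figure D1:**
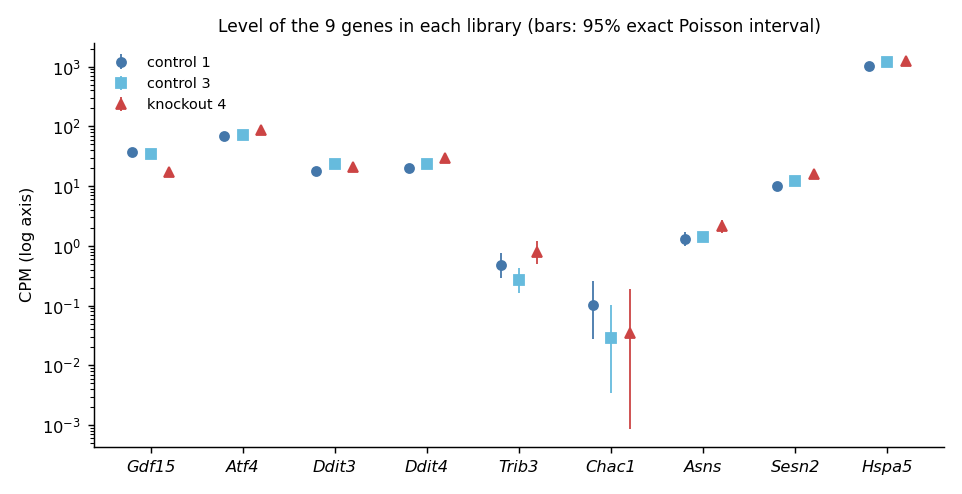
Level of each of the 9 genes (CPM, log axis) in control 1, control 3 and knockout 4, with 95% exact Poisson intervals that cover counting error only. Gdf15 is at 17.5 in knockout 4 against 37.6 and 34.6 in the controls, and Chac1 rests on 1 to 4 UMIs.

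The cells were then split into 7 exclusive groups by the level of marker genes, each a range of marker level rather than a cell type. Taken in order they were patrolling-type cells (at least 2 of Ace, Spn and Treml4 detected), C1q-positive cells (C1qa, C1qb and C1qc together at 10 or more per 10000 UMIs), Arg1-high cells (Arg1 at 10 or more), MHC II-high C1q-low cells (H2-Aa, H2-Ab1 and H2-Eb1 at 20 or more), S100a8-positive cells (S100a8 and S100a9 at 10 or more), Ly6c2/Vcan monocytes (Ly6c2 and Vcan at 5 or more) and the remainder. The Arg1-high group held 213, 119 and 912 cells in control 1, control 3 and knockout 4, so the libraries differed in their makeup; the other groups held 197 to 2717 cells per library.

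Gdf15 was uneven across these groups, and in each of the 7 the knockout library was below both controls. In C1q-positive cells it stood at 48.0 CPM in control 1, 77.0 in control 3 and 40.1 in knockout 4. In MHC II-high cells it stood at 80.9, 54.3 and 9.98, and in the remainder at 54.0, 66.7 and 28.4. These 3 groups were the highest in the controls, while in knockout 4 the MHC II-high group was not. Patrolling-type cells stood at 39.6, 23.5 and 19.0, and Arg1-high cells at 20.3, 29.4 and 13.1. Ly6c2/Vcan monocytes stood at 16.2, 14.2 and 7.23. S100a8-positive cells were lowest in all 3 libraries, at 8.11, 3.54 and 1.38. Over the 3 libraries the means were 55.0 ± 19.4 (SD, n = 3) in C1q-positive cells, 49.7 ± 19.5 in the remainder, 48.4 ± 35.8 in MHC II-high, 27.4 ± 10.8 in patrolling-type, 20.9 ± 8.22 in Arg1-high, 12.5 ± 4.70 in Ly6c2/Vcan and 4.34 ± 3.44 in S100a8-positive cells. Neighbours in this order overlapped within 1 SD, except Ly6c2/Vcan and S100a8-positive cells.

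Of 11129 genes tested across the groups, 4.27% were below both controls in all 7. The log2 difference between knockout and control was -1.05 within the Ly6c2/Vcan group alone and -0.98 over all cells but the Arg1-high, against -1.04 over all cells. The gap was widest in MHC II-high cells, where the knockout value rests on 12 UMIs in 199 cells. Whether the difference between knockout and control was itself different there from that in Ly6c2/Vcan cells was tested by an interaction term, chosen after these levels had been seen. It was not called (-1.62 ± 0.91 SE, adjusted p = 0.787, edgeR), nor was it for any member in any of the 4 groups tested. Few genes of any kind were: of 11129, 1 in C1q-positive, 7 in Arg1-high, 1 in MHC II-high and 12 in patrolling-type cells. At an unadjusted p under 0.05 (edgeR), the term was negative for Hspa5 in C1q-positive, MHC II-high and patrolling-type cells. It was also negative for Atf4 in patrolling-type cells and positive for Ddit3 in Arg1-high cells. Summed markers of 6 dendritic cell genes in MHC II-high cells stood at 23.6 CPM in control 1, 50.9 in control 3 and 4.16 in knockout 4, with Siglech at 0. Those of 9 neutrophil genes stood at 235, 314 and 897, with Retnlg, Camp, Ngp and Ltf at 0. Most of that sum was S100a8, at 157, 182 and 578, and S100a9, at 2.86, 14.5 and 228. These 2 genes also define the S100a8-positive group of monocytes here. The summed levels of both lists thus differed between the genotypes' libraries in this group, the neutrophil sum through S100a8 and S100a9. Their part in the Gdf15 difference was not tested.

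**Figure D2:**
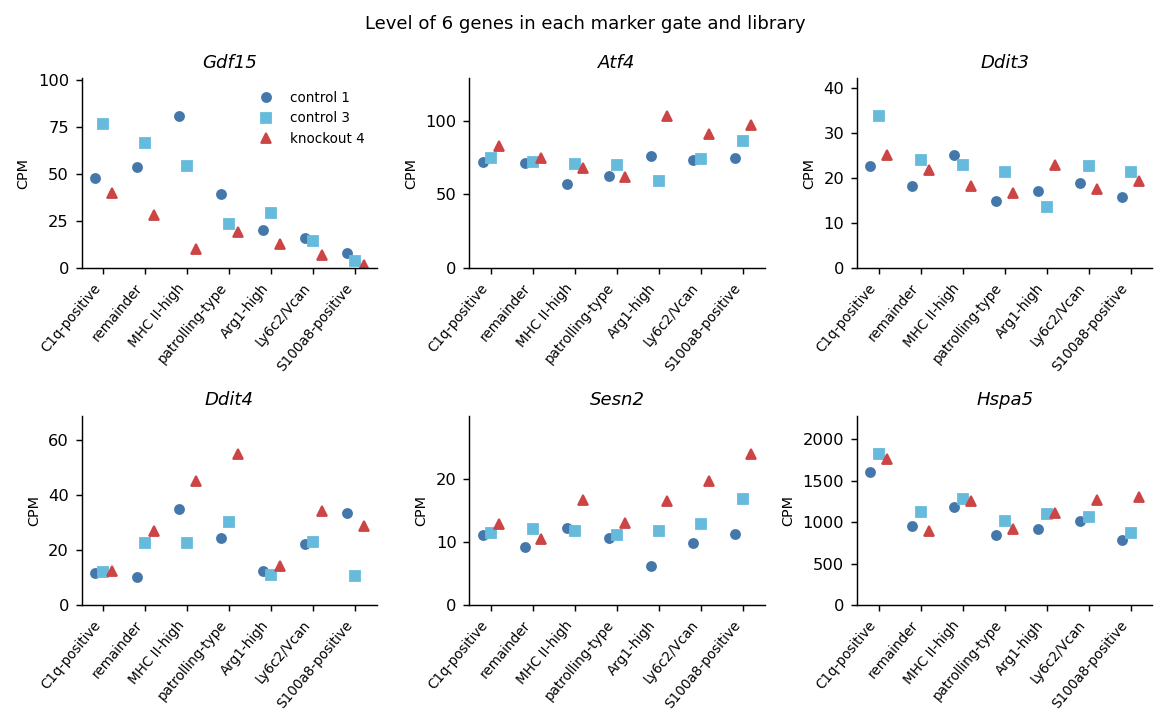
Level (CPM) of Gdf15, Atf4, Ddit3, Ddit4, Sesn2 and Hspa5 in each of the 7 marker-gated groups, 1 point per library. Gdf15 in knockout 4 lies below both controls in all 7 groups, and Hspa5 is highest in C1q-positive cells in every library.

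The other members followed other patterns across the groups. Ddit4 was higher in knockout 4 than in both controls in 6 of 7 groups, and Sesn2 likewise in 6 of 7; 11.2% of genes were above both controls in at least 6. Ddit4 in patrolling-type cells stood at 24.5 CPM in control 1, 30.3 in control 3 and 54.9 in knockout 4, and in C1q-positive cells at 11.9, 12.0 and 12.5. The genotypes thus lay apart in the first group and together in the second. Sesn2 in Ly6c2/Vcan monocytes stood at 9.89, 12.8 and 19.6. Atf4 was above both controls in 5 of 7 groups, and its level in Arg1-high cells was 76.0, 58.9 and 103. The range of Atf4 was narrow: its highest group was 1.33, 1.46 and 1.67 times its lowest in the 3 libraries, against 9.97, 21.7 and 29.1 times for Gdf15. Ddit3, by contrast, was above both controls in Arg1-high cells only, at 17.2, 13.5 and 22.8, where the interaction was not called (0.71 ± 0.32 SE, adjusted p = 0.471, edgeR).

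To ask which groups carried more of each mRNA, 4 groups were each compared with the Ly6c2/Vcan monocytes across all 3 libraries, with the library as a block. Of the 9 members, 7 passed the filter on low counts; Trib3 and Chac1 did not. C1q-positive cells, which express the complement genes typical of tissue macrophages, had 3 members higher and 1 lower, where 17.2% and 17.5% of all genes were called higher and lower. Gdf15 rose by 2.18 ± 0.23 on the log2 scale (SE, edgeR adjusted p = 5.18e-08), a 4.52-fold difference present in all 3 libraries at 1.57, 2.44 and 2.47. Hspa5 rose by 0.63 ± 0.10 (adjusted p = 1.83e-05), from 1020, 1067 and 1276 CPM in Ly6c2/Vcan cells to 1611, 1827 and 1768. The C1q-positive group lay above the other in every library for both genes. Ddit3 rose by 0.47 ± 0.12 (adjusted p = 0.00419), from 18.8, 22.6 and 17.6 to 22.6, 33.7 and 25.2. That call was lost without control 3 (adjusted p = 0.0976), with cells thinned to 3000 UMIs (0.0597) and without the library block (0.0950). Ddit4 fell by 1.07 ± 0.24 (adjusted p = 0.000945), from 22.4, 23.0 and 34.0 to 11.9, 12.0 and 12.5. Within one group of cells, then, the stress hormone and the ER chaperone were higher and the mTORC1 inhibitor lower.

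MHC II-high C1q-low cells, which carry antigen-presentation genes, had Gdf15 alone called, where 9.73% of genes were called higher and 9.55% lower. Gdf15 was higher by 1.94 ± 0.27 on the log2 scale (adjusted p = 1.01e-05, edgeR), but the libraries differed: 2.32 in control 1, 1.94 in control 3 and 0.46 in knockout 4. Patrolling-type cells, marked by genes of the Ly6C-low monocyte, also had Gdf15 alone called, against 7.45% of genes higher and 8.27% lower. There Gdf15 was higher by 1.10 ± 0.24 (adjusted p = 0.00174), at 1.29, 0.73 and 1.39 in the 3 libraries. The call was lost without the library block (1.12, edgeR adjusted p = 0.267) and when the group was gated on cells thinned to 3000 UMIs (0.74, adjusted p = 0.0709). This group alone was gated on detection, which depends on depth. Its median UMI counts were 9932, 11240 and 6768, the highest of any group in the controls only. Gated on thinned cells it held 329, 396 and 258 cells, against 985, 1517 and 609 in the main gate. With that thinned gate Ddit4 was called higher in patrolling-type cells (0.84, adjusted p = 0.00291) and Hspa5 lower (-0.31, adjusted p = 0.0361).

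Arg1-high cells, rich in the arginine-consuming enzyme arginase 1, had 1 member called lower and none higher by edgeR and DESeq2 (Gdf15 was higher at an unadjusted p under 0.05), where 13.8% of genes were higher and 14.6% lower. Ddit4 fell by 1.13 ± 0.30 (adjusted p = 0.00497, edgeR), at 12.5 CPM in control 1, 10.9 in control 3 and 14.4 in knockout 4. That call was lost without knockout 4 (adjusted p = 0.170), which holds most Arg1-high cells, and without the library block (0.111). Gdf15 was at 0.74 ± 0.32 (adjusted p = 0.0935); it was called without control 1 (0.93, adjusted p = 0.0271) and when Arg1 was gated before C1q (1.29, adjusted p = 0.000951). By edgeR and DESeq2, Atf4, Asns and Sesn2 were called in none of the 4 comparisons; at an unadjusted p under 0.05, Asns was lower in C1q-positive cells and Asns, Atf4 and Hspa5 in patrolling-type cells. Their values ranged over the 4 from -0.25 to 0.09 for Atf4, -1.11 to -0.02 for Asns and -0.22 to -0.08 for Sesn2. Atf4 mRNA thus stayed within narrow bounds across groups in which Gdf15 mRNA differed several-fold.

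Hepatocytes also make Gdf15, so free hepatocyte RNA was measured beside it. All 10 hepatocyte markers were detected (Alb highest), with a summed level of 22.8, 77.3 and 28.6 CPM in Ly6c2/Vcan cells and 43.5, 117 and 66.4 in C1q-positive cells of control 1, control 3 and knockout 4. Of these 2 groups, the sum was higher in the one with more Gdf15 in every library. Over the 7 groups, it was lowest in S100a8-positive and next lowest in Ly6c2/Vcan cells in every library, as was Gdf15. It was highest in the remainder, at 54.3, 177 and 72.6, where Gdf15 was second highest. The other groups stood in different orders for the sum and for Gdf15. Both the sum and Gdf15 were highest in control 3 in C1q-positive cells, Arg1-high cells and the remainder. In MHC II-high, patrolling-type, S100a8-positive and Ly6c2/Vcan cells, Gdf15 was highest and the sum lowest in control 1. Over all cells the sum was 36.7, 99.5 and 48.7, against 37.6, 34.6 and 17.5 for Gdf15. The 5 Kupffer cell markers summed to 20.9, 16.1 and 7.45 in C1q-positive cells, none of them at 0. The part of either source in the Gdf15 levels was not tested.

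**Figure D3:**
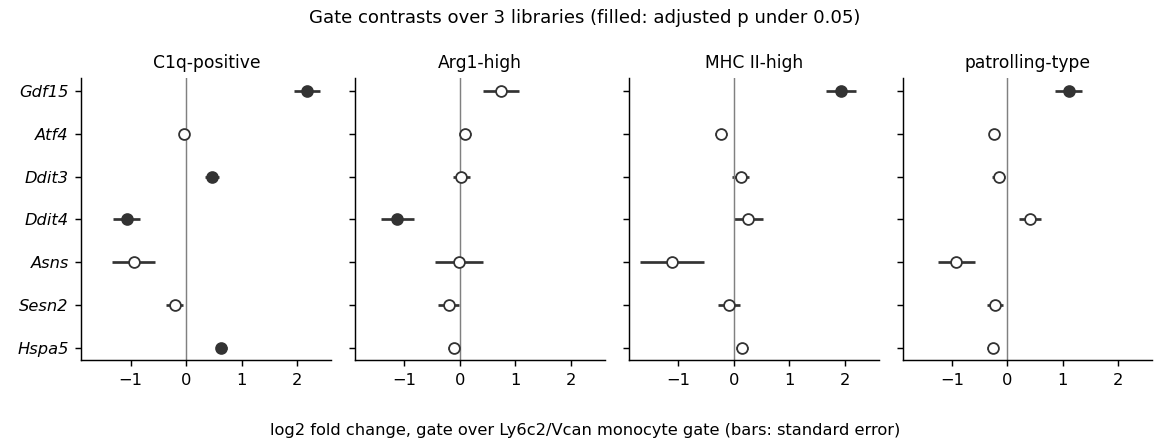
Log2 fold change (± SE) of the 7 tested members in 4 groups over Ly6c2/Vcan monocytes, from the fit over 3 libraries and 7 groups. Filled points are called at an adjusted p under 0.05: Gdf15 in 3 of 4 groups, Ddit4 lower in 2, Ddit3 and Hspa5 in C1q-positive cells.

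Gdf15 mRNA was concentrated in few cells. At least 1 Gdf15 UMI was found in 9.07%, 7.62% and 3.68% of cells of control 1, control 3 and knockout 4. In cells thinned to 3000 UMIs the shares were 4.65%, 4.42% and 2.26%. Among the few lymphocyte-gated cells, which should lack the gene, 4 of 62, 3 of 86 and 0 of 22 thinned cells held one. Before thinning, 81.3% to 100% of the lymphocyte-gated cells of a library also held Lyz2, a myeloid transcript. With exact 95% intervals of 1.79% to 15.7%, 0.725% to 9.86% and up to 15.4%, these shares do not lie below those of the monocytes, so single UMIs were not read as expression.

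Cells with 5 or more Gdf15 UMIs, a bound set after the distribution was seen, numbered 99 of 4036 in control 1, 169 of 7346 in control 3 and 34 of 4425 in knockout 4. Their shares were 2.45% (exact 95% interval 2.00% to 2.98%), 2.30% (1.97% to 2.67%) and 0.768% (0.533% to 1.07%), so the knockout interval lay below both control intervals. These intervals cover the counting of cells within a library only. Such cells held 71.0%, 72.6% and 57.6% of all Gdf15 UMIs of their library, and the most in 1 cell was 33, 54 and 19. They held 1049, 1772 and 291 Gdf15 UMIs, or 783, 707 and 830 CPM, a level that the bound itself raises. All other cells stood at 11.6, 9.81 and 7.33 CPM, lowest in the knockout library. At the bound itself, 18, 37 and 10 cells had exactly 4 UMIs, and 17, 33 and 6 exactly 5. In thinned cells, the shares with 2 or more of 3000 UMIs were 2.10%, 2.15% and 0.979%, lowest in the knockout library at equal depth too, while the controls changed places.

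These cells were found in most groups. In C1q-positive cells they made up 3.09%, 5.50% and 1.85% in control 1, control 3 and knockout 4, and in Ly6c2/Vcan monocytes 0.746%, 0.736% and 0.231%. In MHC II-high cells they numbered 7 of 197, 18 of 589 and 0 of 199, where a count of 0 has an exact upper 95% limit of 1.84%. The patrolling-type group held 3.65%, 2.50% and 0.985%. In each of these 4 groups the share was lowest in the knockout library.

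**Figure D4:**
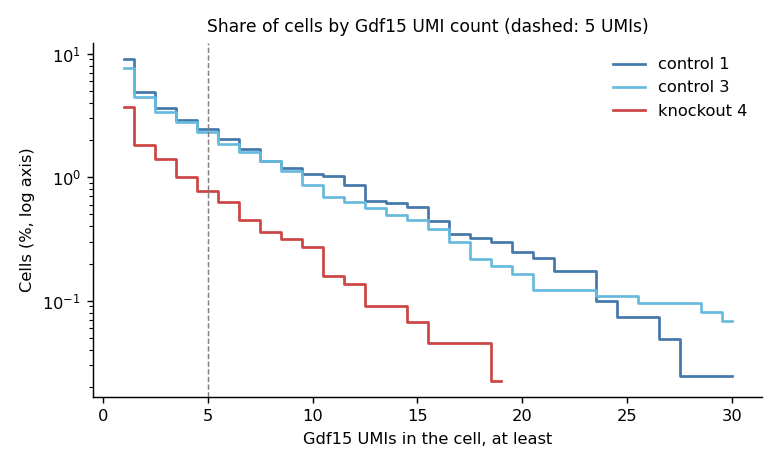
Share of cells (%, log axis) with at least the given number of Gdf15 UMIs, in steps up to 30, for each library. At 5 UMIs (dashed line) the shares are 2.45% and 2.30% in the controls and 0.768% in knockout 4, and the knockout line ends at 19.

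The other stress response genes were then read in the cells with 5 or more Gdf15 UMIs, as values with no test, since the cells were chosen after their counts had been seen. Such cells had more UMIs than the rest (medians of 11398, 11593 and 10187.5 against 8712, 8092 and 6856), so levels were taken as CPM and set against other cells of the same groups in the same proportions. Ddit3 was at 35.1 CPM in control 1, 47.1 in control 3 and 65.6 in knockout 4, against 18.0, 24.6 and 20.5 in the matched cells, or 1.95, 1.91 and 3.21 times as high. The exact 95% Poisson intervals of the first values were 25.8 to 46.6, 39.0 to 56.4 and 41.6 to 98.5, each above the matched level. They cover counting error only and not the spread between cells, so they are no test. In thinned cells the ratios to all other cells were 2.43, 2.68 and 3.37. CHOP mRNA was thus more abundant in the Gdf15-rich cells of every library. Only 1.54% of 8805 genes were at least 1.5 times higher in all 3 libraries, and 20.7% were higher in all 3. Both shares are of ratios to all other cells, without matching for group.

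Asns was at 5.22, 3.19 and 5.71 CPM against 1.13, 1.24 and 1.49, and Trib3 was also higher in all 3 libraries, but these rest on 7, 8 and 2 UMIs and on 4, 2 and 1. Chac1 was not detected in these cells. Hspa5 was at 1412, 1567 and 1298 against 1079, 1332 and 1267, a ratio that fell to 1.02 in the knockout library. Atf4 was at 67.9, 90.6 and 103 against 69.2, 71.2 and 77.8, with control 1 on the other side. In thinned cells, between those with 2 or more Gdf15 UMIs and all others, its ratios were 1.24, 1.56 and 0.666, with knockout 4 on the other side instead. Sesn2 differed little, at 9.70, 12.0 and 11.4 against 10.5, 11.5 and 12.9. Ddit4 was lower in every library, at 12.7, 14.0 and 19.97 against 19.8, 21.3 and 25.1, although in control 1 and knockout 4 its interval reached the matched level. Of all genes, 27.8% were lower in all 3 libraries, as ratios to all other cells without matching for group.

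Other genes of the response in these cells were counted from lists, where 20.7% of all genes were higher and 27.8% lower in all 3 libraries. These counts and shares are of ratios to all other cells, without matching for group, so differences in group makeup enter them. The CPM values of single genes printed here are set against the matched cells. Of 15 further ATF4 and CHOP targets, 4 were higher and 2 lower in all 3, a share of higher genes near that of all genes. Of the 4, 2 were higher by at least 1.5 times: Sqstm1, the autophagy receptor p62 (277, 282 and 340 CPM against 116, 136 and 138), and Slc7a11, the cystine transporter (160, 184 and 454 against 66.5, 94.0 and 202). Both are also targets of the oxidative stress factor NRF2. Of 18 cytosolic aminoacyl-tRNA synthetases, 8 were higher in all 3 libraries and none lower, with Aars higher by at least 1.5 times. Of 26 ER genes 12 were higher and 5 lower, and of 10 mitochondrial chaperones and proteases 6 were higher and 2 lower. Of 15 genes of the eIF2 kinases and subunits 5 were higher and 3 lower, and of 11 amino acid genes 4 and 0. Of 10 partner transcription factors 3 were higher and 4 lower, with a median log2 ratio of -0.13. Of 11 p53 targets, 7 were higher and 1 lower in all 3, with a median log2 ratio of 0.68 against -0.05 over all genes; the kinase Plk2 was at 83.5, 41.5 and 48.5 against 36.5, 18.6 and 24.2. Of 13 hypoxia targets, none was higher and 5 were lower in all 3. Of 8 glucocorticoid targets, 2 were higher and 3 lower, near the shares of all genes, with the kinase Sgk1 at 184, 97.8 and 203 against 99.1, 60.1 and 101. Sqstm1, Slc7a11, Aars, Plk2 and Sgk1 were named because they passed the 1.5-fold bound, after their values had been seen.

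**Figure D5:**
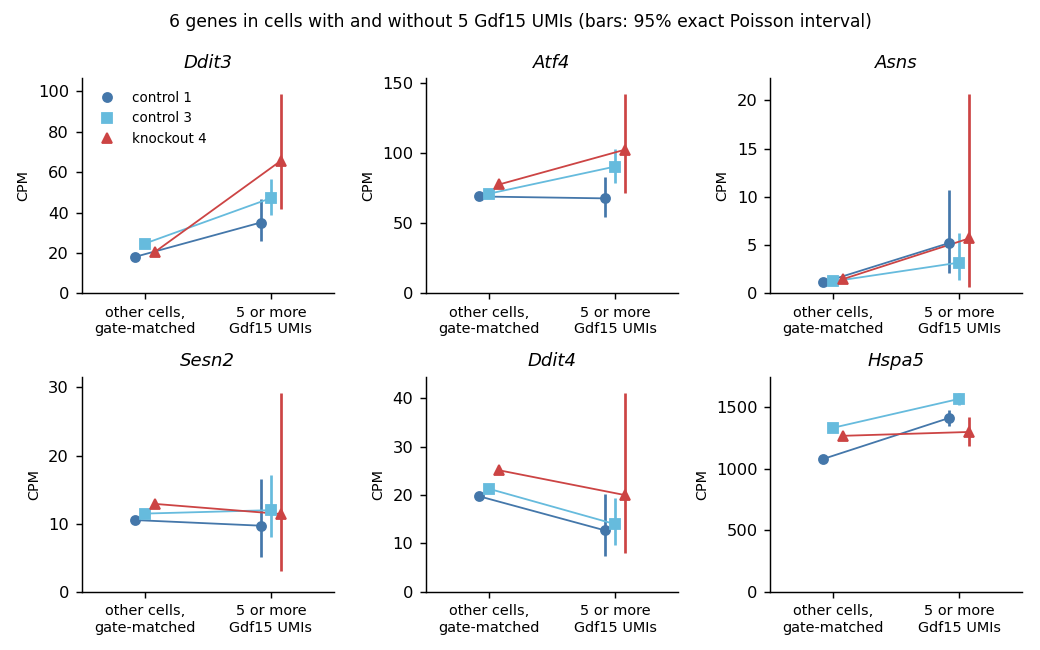
Level (CPM) of 6 members in cells with 5 or more Gdf15 UMIs and in other cells matched for marker group, 1 line per library, with 95% exact Poisson intervals. The intervals cover counting error only. Ddit3 is higher in the Gdf15-rich cells of all 3 libraries, while the wide intervals of Asns rest on 2 to 8 UMIs.

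Across the 21 sums of 3 libraries by 7 groups, the genes whose log2 levels followed Gdf15 most closely among 8821 were Rasgef1b (Pearson r = 0.94), Dpp7 (0.93), Arrb2 (0.92), Hyi (0.91) and Tmem86a (0.91). None is a member. Of the members, Ddit3 (0.37) and Hspa5 (0.28) had positive and Ddit4 (-0.24), Atf4 (-0.59) and Sesn2 (-0.62) negative correlations with Gdf15, and Ddit3 and Hspa5 correlated with each other at 0.63. The sums share libraries, so these values are a description. With the mean of Trib3, Chac1, Asns and Ddit3, of which 3 are near 0 UMIs, the closest were Irf2bpl (0.78), Atf4 (0.74), Rbm18 (0.73), Mpp1 (0.72) and Srp14 (0.72).

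The wider pathway was read from 7 lists of 122 other genes: eIF2 kinases and subunits, partner transcription factors, further ATF4 and CHOP targets, amino acid genes, aminoacyl-tRNA synthetases, the ER unfolded protein response and mitochondrial chaperones and proteases. Between knockout and control, 1 of 112 tested genes was called higher and none lower by edgeR, against 0.19% and 0.00677% of all genes; DESeq2 called 2 and 0, and 12 and 3 had an unadjusted p under 0.05. The 1 was Ero1l, an ER oxidase that is also a hypoxia target, at 47.8 CPM in control 1, 45.6 in control 3 and 156 in knockout 4 (log2 difference 1.74 ± 0.15 SE, adjusted p = 0.00776, edgeR). Of 14 hypoxia targets, 6 were called higher, among them the prolyl hydroxylase gene Egln3 at 8.99, 7.24 and 51.5. All lists were chosen with earlier results of these data known. The calls within them, here and below, therefore stand as a description and not as independent support. The ER list had no gene called by edgeR or DESeq2 (6 higher and 0 lower at an unadjusted p under 0.05), but 26 of its 28 genes lay above both controls in the knockout library, where 36.2% of all genes did, with a median log2 difference of 0.29 against -0.01 over all genes. Its leading gene was Dnajb9, a cochaperone of BiP, at 27.8, 32.3 and 51.6 (0.78 ± 0.16, adjusted p = 0.164). Genes of 1 list are not independent of each other.

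Across groups, 36 of 110 tested genes of the 7 lists (32.7%) were called higher in C1q-positive cells and 19 (17.3%) lower. Of all genes, 17.2% and 17.5% were called there, more than in each of the other 3 comparisons. Higher genes included Slc3a2, the heavy chain of amino acid exchangers (0.74 ± 0.07 SE, edgeR adjusted p = 2.05e-08), the aspartate aminotransferase Got1 (0.86 ± 0.11) and the mitochondrial chaperone Hspd1 (0.79 ± 0.08). Of 27 ER genes, 12 rose and 3 fell; Pdia4 (0.71 ± 0.12) and Hsp90b1 (0.45 ± 0.09) rose with Hspa5, and Xbp1 (-0.42 ± 0.06) and Sec61b (-0.51 ± 0.07) fell. Of the partner factors 5 of 10 fell, led by Cebpd (-0.91 ± 0.09) and Cebpb (-0.54 ± 0.07), and none rose (0 also by DESeq2 and at an unadjusted p under 0.05). Ppp1r15b, which steers the phosphatase of eIF2, also fell (-0.54 ± 0.09), and Gadd45a, a growth arrest gene of the ATF4 and CHOP list, fell by 1.98 ± 0.30. The count of genes called higher was 18 without control 3, 26 without control 1, 33 without knockout 4 and 16 without the library block. Of all genes, 9.8%, 13.1%, 14.7% and 7.75% were called higher in these fits.

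Of 12 tested p53 targets, 9 rose in C1q-positive cells (17.2% of all genes did), 7 in MHC II-high cells (9.73%) and 5 in Arg1-high cells (13.8%); Phlda3 (3.25 ± 0.27 SE, edgeR adjusted p = 6.51e-10) and Sesn1 (1.10 ± 0.11), a relative of Sesn2, led in the first. Without control 3 the second count was 2, against 4.24% of all genes. Without the library block the 3 counts were 5, 5 and 1, against 7.75%, 3.06% and 6.86%. Without control 1 the first was 6 and the third 3, against 13.1% and 10.2%. The third was 3 without knockout 4, against 9.26%. In patrolling-type cells 4 rose, among them the death gene Bbc3 (0.84 ± 0.12), and Pmaip1, another such gene from the ATF4 and CHOP list, rose by 0.96 ± 0.11.

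In patrolling-type cells the pathway was lower on balance in the main fit. There 7 of 110 genes (6.36%) rose and 29 (26.4%) fell, against 7.45% and 8.27% of all genes. Without control 1 the counts were 4 and 6, against 3.46% and 3.87% of all genes. They were 4 and 22 without control 3, against 5.78% and 5.86%, and 6 and 14 without knockout 4, against 4.84% and 5.01%. Without the library block they were 2 and 1, against 1.69% and 1.36% of all genes. These are too few calls to show whether the balance held there. Of 27 ER genes 18 fell, among them Pdia6 (-0.45 ± 0.09 SE, adjusted p = 0.000696, edgeR), and none rose (0 also by DESeq2 and at an unadjusted p under 0.05). The count of ER genes that fell was 2 without control 1, 16 without control 3 and 8 without knockout 4. It was 1 without the library block. The shares of all genes in these fits are those given above. With the gate set on thinned cells, 1 rose and 14 fell, against 7.44% and 7.23% of all genes. In Arg1-high cells 22 of 110 genes rose and 19 (17.3%) fell, against 13.8% and 14.6% of all genes; 12 of 14 hypoxia targets rose (Hilpda, 2.23 ± 0.16), Ero1l rose by 1.00 ± 0.10 and Slc7a11 by 0.63 ± 0.13, while the ER gene Herpud1 fell by 1.12 ± 0.10. The higher and lower counts were 8 and 12 without control 3, against 9.39% and 10.7% of all genes. Without control 1 they were 14 and 8, against 10.2% and 11.5%. They were 8 and 6 without the library block, against 6.86% and 8.13%. In MHC II-high cells 15 of 110 genes (13.6%) rose and 18 (16.4%) fell, against 9.73% and 9.55% of all genes, among them the factor Batf3, which rose by 0.75 ± 0.18. These counts were 6 and 7 without control 3, against 4.24% and 5% of all genes. Without control 1 they were 9 and 10, against 6.02% and 6.16%. They were 5 and 2 without the library block, against 3.06% and 2.82%.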

How the data were processed

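Libraries were made with 10x Genomics 3' chemistry, per the labels' protocols, and processed with Cell Ranger 3.0.2 (also named in the file headers) and bcl2fastq on GRCm38, per the submitters' processing notes. The deposited matrices, 1 per library, hold UMI counts that were not normalized; which annotation and barcode filter made them is not stated. They list 4814, 8109 and 5152 barcodes, where the series' text states 4860, 8149 and 5229 cells.

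Kept cells had 500 genes or more and a mitochondrial share of UMIs up to 10%. Lymphocyte-gated cells (2 or more UMIs of T, B and NK cell marker genes together, among them Cd3d, Cd3e, Cd79a and Ncr1) were left out: 79, 103 and 32 in control 1, control 3 and knockout 4. No doublet caller was run and no doublets were removed. UMI counts were summed per library, and per library and marker group, and tested with edgeR 4.0.16 (R 4.3.3; TMM, filterByExpr, quasi-likelihood, Benjamini-Hochberg over all genes, threshold 0.05, two-sided). The knockout fit held 14773 genes with 1 residual degree of freedom. The group fit held 21 sums and 11129 genes, with the library as a block because the groups of a library come from the same cells' suspension. Levels are TMM-scaled CPM. The fitting was tested on simulated data. Cells near a gate's bound (within 20% of it) made up 0.667% to 10.2% of a library. Beside the size of a group they could be many. In control 1, 111 cells lay near the MHC II-high bound and 197 in the group. For Ly6c2/Vcan cells of control 1 these numbers were 381 and 804, and for C1q-positive cells of knockout 4 they were 127 and 702.

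DESeq2 1.42.0, other filters, gates and depths, and left-out libraries were alternatives; gating the patrolling-type cells after thinning, and the pathway counts under the alternatives, were added after seeing the data. The members and lists were chosen with earlier results of these data known. Genes named from a list are the 2 with the smallest p in each direction and comparison, or, in the Gdf15-rich cells, those past the 1.5-fold bound; the 5 most like Gdf15, and the 5 most like the mean of Trib3, Chac1, Asns and Ddit3, were taken by Pearson correlation among genes at a mean of at least 5 CPM. Gene coordinates are from GENCODE M21 (GRCm38), in which 99.7% of gene identifiers were found.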

Additional observations from a re-analysis of the deposited data

How the results depend on the processing

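Gdf15 kept its call in C1q-positive cells under all 12 alternatives (log2 difference 1.92 to 2.76, highest adjusted p = 0.0036, edgeR or DESeq2) and in MHC II-high cells under all 12 (1.37 to 2.50, highest 0.0214); so did Hspa5 and Ddit4 in C1q-positive cells (highest 0.00542 and 0.0417). No fold change of a member reversed a call. The knockout difference of Gdf15 ranged from -1.16 to -0.98 over 10 alternatives, and that of Ddit3 from -0.23 to 0.20, with both signs.

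The genes called higher in the knockout library, 28 by edgeR, numbered 94 by DESeq2, 288 with no filter on low counts, 9 without Arg1-high cells, 7 in cells thinned to 3000 UMIs and 4 in the Ly6c2/Vcan group. Those called lower, 1 by edgeR, numbered 2 with DESeq2's size factors, 21 by DESeq2, 159 with no filter and 0 in the Ly6c2/Vcan group. The cause was not tested.

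In Arg1-high cells the members called higher went from 0 to 1 with no filter and with Arg1 gated first, and ranged from 0 to 1 with a library left out (1 without control 1). Those called lower went from 1 to 0 without the replicate block and ranged from 0 to 1 with a library left out (0 without knockout 4). In MHC II-high cells the members called higher ranged from 1 to 2, the second being Hspa5 without knockout 4. In patrolling-type cells those called higher went from 1 to 2 with no filter and in thinned cells, where Ddit4 joined Gdf15, and to 0 without the replicate block. Those called lower went from 0 to 1 with no filter, with doubled gate bounds, with Arg1 gated first, with a mitochondrial share up to 20%, in thinned cells and with the gate set on thinned cells, and ranged from 0 to 2 with a library left out (Atf4 and Hspa5 without control 3). The cause of these shifts was not tested.

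No paired analysis was possible because the control and knockout libraries share no replicate number; the 2 fits without 1 control gave fold changes only. With the library as replicate block left out of the group fit, Ddit3 in C1q-positive cells stood at 0.46 (adjusted p = 0.0950, edgeR). Trib3 and Chac1, with 1 to 23 UMIs per library, are limited by depth, and the knockout comparison by its 1 library.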
